A study of Homo sapiens with 18 samples.

Results

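The genes described here act in the nucleolus, where ribosomes are assembled. They were chosen by name: 54 symbols that cover transcription of ribosomal RNA by RNA polymerase I, the proteins that carry small nucleolar RNAs (snoRNAs), the assembly of the small and of the large ribosomal subunit, and a few other nucleolar proteins. Of these, 53 had a row among the 14079 genes of the count table, and RRN3, the factor that recruits RNA polymerase I to its promoter, was not analysed here. The genes with a row comprise 5 roles, with 19 genes in large-subunit assembly, 16 in small-subunit assembly, 8 in snoRNA-protein complexes, 6 in RNA polymerase I transcription and 4 other nucleolar factors.

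As background, RNA polymerase I copies the ribosomal DNA into a long precursor RNA. Box C/D and box H/ACA snoRNA-protein complexes modify that precursor at sites picked by base pairing, and large assembly complexes cut, fold and package it into pre-ribosomal particles that leave the nucleus. Growing cells, leukaemia cells among them, transcribe these genes strongly, and many of them are textbook targets of the transcription factor MYC.

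The study measured transcription starts by CAGE, which reads short tags at the capped 5′ ends of RNA molecules, in 18 libraries of total RNA from human myeloid leukaemia cell lines. There were 6 groups of 3 libraries: AML3 cells with JQ1, with OTX015 and with vehicle (DMSO), and AML2 cells with JQ1, with OTX015 and with vehicle. AML3 and AML2 are named OCI-AML3 and OCI-AML2 in the count tables. As background, OCI-AML3 is a line with an NPM1 mutation that moves this nucleolar protein into the cytoplasm, and OCI-AML2 is a line without it, while the labels give no genotype, dose or treatment time. JQ1 and OTX015 are thienotriazolodiazepines that block the bromodomains of the BET proteins, and they differ in the side chain, a tert-butyl ester for JQ1 against a hydroxyphenyl amide for OTX015. Nothing in the labels says that the libraries of a group came from separate cultures, so the p-values measure the spread between these libraries, which may be technical.

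Tags per library ranged over 378794 to 1024704 (AML3, JQ1), 303883 to 800633 (AML3, OTX015), 822070 to 1864643 (AML3, vehicle), 570101 to 1290954 (AML2, JQ1), 452667 to 1215251 (AML2, OTX015) and 957036 to 2163106 (AML2, vehicle). The libraries with a compound were thus shallower, and the share of tags at the nuclear RNA MALAT1 moved with the compounds. It lay between 5.35% and 6.75% in the 6 AML3 libraries with a compound and between 0.148% and 0.291% in those with vehicle, and between 1.41% and 3.16% against 0.102% to 0.205% in AML2. The part of depth and of MALAT1 in the results below was not tested. Replicate 3 with JQ1 and replicate 3 with OTX015 stood apart from the other AML3 libraries with a compound. They were the shallowest of all. Their TMM factors were 1.49 and 1.55, where the other 4 lay between 1.09 and 1.19. On the first and second principal components they had the highest values of those 6. Replicate 3 was the shallowest library of every group, vehicle included. With each compound in AML2, it also had the highest TMM factor and first and second components of its group. Its second component was 36.9 with JQ1, against 25 and 24.9, and 45 with OTX015, against 34.4 and 32.6. The shift of replicate 3 with a compound was thus not confined to AML3. Of 9 myeloid marker genes 8 had a row, their summed level ranging over 500 to 5640 CPM (tags per library, scaled by TMM to a common total) in AML3 and 1980 to 4530 CPM in AML2 libraries, while the defining markers of T cells, erythroid and epithelial cells had no row.

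The sequences below are 6 promoters of members whose values the results turn on, from 250 bases before to 50 bases after the start of the gene (RefSeq, GRCh38.p14, written 5′ to 3′ on the strand of the gene). FBL, RRP9 and NOP10 are shown because they hold the E-box CACGTG, the binding motif of MYC and related factors, which is in capitals. GAR1 and NOP16, the genes with the lowest mean change in their roles, and NOP56, which did not pass in any comparison with vehicle, hold no CACGTG in this window.
FBL, chr19:39846330-39846629, minus strand: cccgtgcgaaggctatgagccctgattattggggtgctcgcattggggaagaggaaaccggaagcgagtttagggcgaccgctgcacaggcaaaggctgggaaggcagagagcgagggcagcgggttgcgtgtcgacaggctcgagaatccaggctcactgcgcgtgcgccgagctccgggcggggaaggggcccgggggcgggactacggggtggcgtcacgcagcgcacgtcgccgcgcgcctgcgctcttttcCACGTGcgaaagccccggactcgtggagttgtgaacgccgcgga
RRP9, chr3:51941855-51942154, minus strand: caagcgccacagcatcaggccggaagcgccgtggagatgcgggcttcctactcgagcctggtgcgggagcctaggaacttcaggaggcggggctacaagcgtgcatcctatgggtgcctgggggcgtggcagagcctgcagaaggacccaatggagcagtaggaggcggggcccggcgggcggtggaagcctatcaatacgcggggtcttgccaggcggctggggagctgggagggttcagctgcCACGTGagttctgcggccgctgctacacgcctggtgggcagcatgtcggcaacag
NOP10, chr15:34343087-34343386, minus strand: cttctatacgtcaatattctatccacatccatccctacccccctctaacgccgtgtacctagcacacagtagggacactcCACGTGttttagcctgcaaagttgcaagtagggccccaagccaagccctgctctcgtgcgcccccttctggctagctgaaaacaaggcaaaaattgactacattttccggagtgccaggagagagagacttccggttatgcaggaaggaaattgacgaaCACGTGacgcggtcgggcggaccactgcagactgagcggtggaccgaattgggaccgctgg
GAR1, chr4:109815260-109815559, plus strand: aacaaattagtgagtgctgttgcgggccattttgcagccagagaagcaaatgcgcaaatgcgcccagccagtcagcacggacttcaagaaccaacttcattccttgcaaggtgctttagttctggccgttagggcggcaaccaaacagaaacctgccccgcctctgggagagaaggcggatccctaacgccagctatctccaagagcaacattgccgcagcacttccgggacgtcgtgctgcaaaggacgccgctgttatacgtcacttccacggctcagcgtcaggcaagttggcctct
NOP16, chr5:176388549-176388848, minus strand: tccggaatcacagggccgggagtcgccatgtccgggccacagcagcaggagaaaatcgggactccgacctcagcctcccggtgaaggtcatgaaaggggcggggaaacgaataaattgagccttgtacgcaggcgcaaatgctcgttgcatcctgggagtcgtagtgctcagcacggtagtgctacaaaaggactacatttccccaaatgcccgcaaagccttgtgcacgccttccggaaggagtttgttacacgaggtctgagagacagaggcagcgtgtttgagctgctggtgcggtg
NOP56, chr20:2652382-2652681, plus strand: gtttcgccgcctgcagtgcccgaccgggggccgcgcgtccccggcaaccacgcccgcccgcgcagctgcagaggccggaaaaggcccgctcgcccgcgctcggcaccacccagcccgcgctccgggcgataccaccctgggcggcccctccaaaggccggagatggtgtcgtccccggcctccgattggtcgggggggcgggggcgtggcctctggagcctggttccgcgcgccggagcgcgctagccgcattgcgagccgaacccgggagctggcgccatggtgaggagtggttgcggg

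Most of the assembly genes fell with both compounds in both lines. In AML3, their levels summed to 1954 ± 246 CPM with JQ1 and 1895 ± 261 CPM with OTX015, against 3901 ± 104 CPM with vehicle (SD, n = 3 each). In AML2, they summed to 2385 ± 27.3 CPM with JQ1 and 2124 ± 32.3 CPM with OTX015, against 5885 ± 751 CPM with vehicle (SD, n = 3 each). The compound and vehicle libraries did not overlap in either line. The AML3 libraries that stood apart gave the lowest sums, 1670 CPM (JQ1) and 1594 CPM (OTX015). The other JQ1 libraries gave 2103 and 2088 CPM and the other OTX015 libraries 2038 and 2054 CPM. Before TMM scaling that order was reversed. The genes held 0.244% of gene tags in each library that stood apart, beside 0.231% and 0.226% (JQ1) and 0.233% and 0.241% (OTX015). By group, this unscaled share averaged 0.234% (JQ1) and 0.239% (OTX015) against 0.349% with vehicle in AML3. In AML2 it averaged 0.219% and 0.2% against 0.476%. Because 1 tag stands for 1 capped end, levels of different genes need no correction for length. In bulk libraries, fewer cells of a type and less RNA per cell cannot be told apart.

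**Figure D1:**
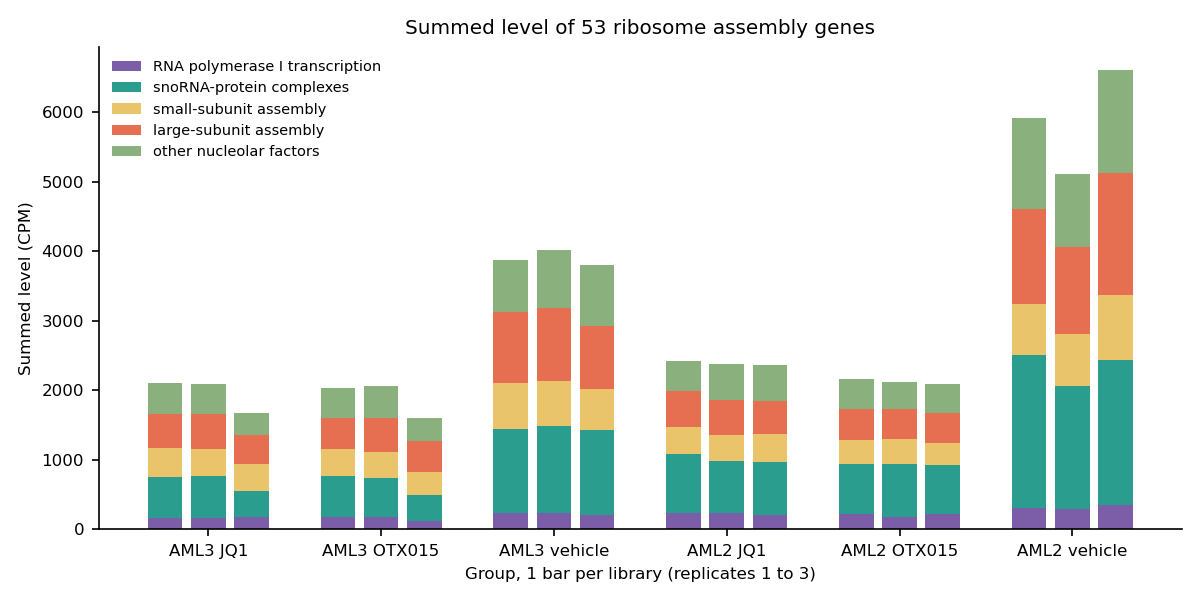
Summed level in CPM (y axis) of the 53 genes with a row, 1 bar per library, in groups of 3 libraries along the x axis and stacked by role. Every library with JQ1 or OTX015 stands lower than every vehicle library of its line, and the AML2 vehicle libraries are the highest at 5113 to 6612 CPM.

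Of the 52 genes with enough tags to be tested, 35 fell with JQ1 in AML3 (edgeR quasi-likelihood test, Benjamini-Hochberg adjusted p under 0.05), where 24.1% of all 10031 genes tested fell. With JQ1 in AML2, 44 fell, against 17.4% of all genes. OTX015 lowered 33 in AML3, against 26.1% of all genes, and 44 in AML2, against 19.9%. Without replicate 3 of the compound group, 30 genes fell with JQ1 and 30 with OTX015 in AML3. In AML2, fits that left out 1 library gave 37 to 42 falls with JQ1 and 39 to 42 with OTX015. None passed upward in AML3, where 26.8% of all genes rose with JQ1 and 28.8% with OTX015, and UBTF alone passed upward in AML2, where 17.2% and 20.5% of all genes rose. The median log2 fold changes of the 52 genes were -0.94 (JQ1) and -0.96 (OTX015) in AML3, and -1.21 (JQ1) and -1.35 (OTX015) in AML2, beside medians over all genes of 0.04, 0.03, 0.00 and 0.02 in that order. When libraries were scaled by total tags alone, 21 and 19 of the 52 fell in AML3 with JQ1 and OTX015, and 33 and 37 in AML2. That scaling also moved the share of lower among all calls to 27.4% and 27.3% in AML3 and to 40.2% and 38.9% in AML2, where TMM gave 47.3%, 47.6%, 50.2% and 49.3%. The comparisons within a line share its vehicle libraries.

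A core of 29 genes fell in all 4 comparisons with vehicle, among them GAR1, NOP16, MRTO4, EBNA1BP2, FBL, WDR12, LYAR and NHP2. How many of all genes fell in all 4 was not counted, so this count is a description. In single comparisons 17.4% to 26.1% of all genes fell, and those within a line share vehicle libraries. Another 8 fell in 3 comparisons (UTP20, RRP12, GNL3, RCL1, NAT10, RRP1, NOP2 and BOP1) and 6 in 2 (NOP10, POLR1E, HEATR1, RRP9, IMP3 and NOC2L). NOC4L, SDAD1, DDX10 and FTSJ3 fell in 1 comparison each, and 5 genes, PWP2, BYSL, POLR1A, NOP56 and UBTF, fell in 0. PPAN, a large-subunit assembly factor with 25 tags over all libraries, was too low to be tested.

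**Figure D2:**
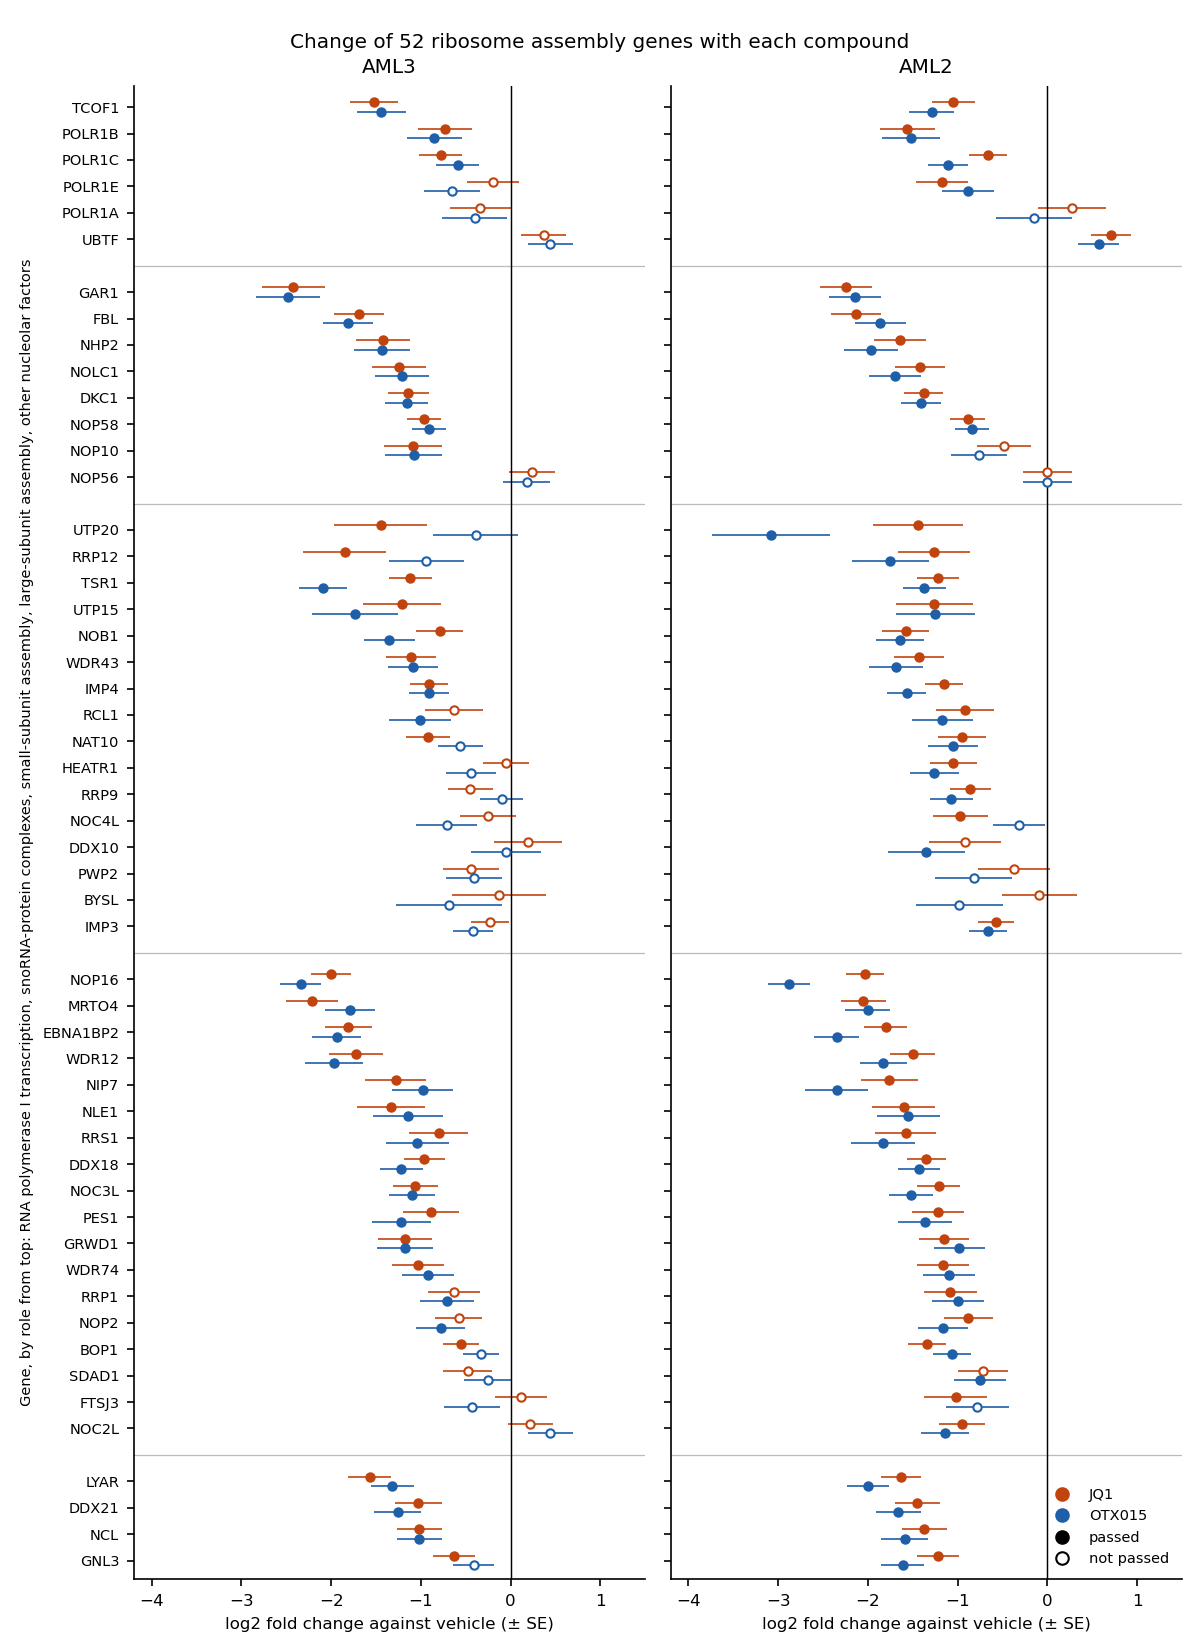
Log2 fold change against vehicle (x axis, with its standard error as the bar) of each tested gene (y axis, grouped by role), in AML3 on the left and AML2 on the right. Filled points passed at an adjusted p under 0.05, and nearly all points lie left of 0, with GAR1 and NOP16 far left and NOP56 and UBTF at or right of 0.

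Among the RNA polymerase I genes, 3 of 6 fell with each compound in AML3 and 4 of 6 in AML2. Among all genes, 24.1% (JQ1) and 26.1% (OTX015) fell in AML3 and 17.4% and 19.9% in AML2. TCOF1 encodes treacle, a nucleolar phosphoprotein needed for transcription of ribosomal DNA, and had the lowest mean change of this role. In AML3, TCOF1 stood at 11.6, 18 and 16.2 CPM with JQ1 and at 18.6, 17.5 and 8.61 CPM with OTX015, against 44.0, 47.6 and 36.9 CPM with vehicle. In AML2, TCOF1 stood at 21.7, 33.5 and 26.5 CPM with JQ1 and at 26.9, 23.2 and 18.9 CPM with OTX015, against 48.9, 61.3 and 62.6 CPM with vehicle. No compound library reached the level of a vehicle library of its line. The log2 fold changes of TCOF1 were -1.52 (SE 0.27) and -1.44 (SE 0.27) in AML3 and -1.05 (SE 0.24) and -1.29 (SE 0.25) in AML2, JQ1 first in each line, with edgeR adjusted p between 6e-05 and 0.0012.

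POLR1B, the second-largest subunit of the polymerase, also fell in all 4 comparisons. In AML3, POLR1B had 22.2, 21.1 and 18 CPM with JQ1 and 22.9, 23.0 and 6.46 CPM with OTX015, against 29.3, 38.9 and 36.9 CPM with vehicle. In AML2, POLR1B had 10.3, 16.7 and 12.3 CPM with JQ1 and 18.7, 13.5 and 6.32 CPM with OTX015, against 44.7, 38.5 and 35.8 CPM with vehicle. The groups were separate in both lines, and the distance was wider in AML2. POLR1B changed by -0.73 (SE 0.30, edgeR adjusted p = 0.043) and -0.85 (SE 0.31, adjusted p = 0.0216) in AML3, and by -1.56 (SE 0.31, adjusted p = 0.000407) and -1.52 (SE 0.32, adjusted p = 0.000459) in AML2. The AML3 call with JQ1 was lost without any of vehicle replicates 2 and 3 or JQ1 replicates 1, 2 and 3, and that with OTX015 without vehicle replicate 2 or OTX015 replicate 3 (edgeR adjusted p 0.0131 to 0.342 over all alternatives of both).

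POLR1C, a subunit shared with RNA polymerase III, fell in all 4 as well. In AML3, POLR1C had 32.9, 37.0 and 19.8 CPM with JQ1 and 37.1, 42.7 and 21.5 CPM with OTX015, against 57.5, 51.9 and 49.6 CPM with vehicle. In AML2, POLR1C had 76.5, 52.9 and 61.7 CPM with JQ1 and 43.2, 48.4 and 48.4 CPM with OTX015, against 110, 93.3 and 98.4 CPM with vehicle. Every compound library stood under every vehicle library of its line. Its log2 fold changes were -0.78 (SE 0.24) and -0.59 (SE 0.24) in AML3, and -0.66 (SE 0.21) and -1.11 (SE 0.22) in AML2. The OTX015 call in AML3 was lost without vehicle replicate 1 or 2 or OTX015 replicate 1 or 3, and the JQ1 call in AML2 without vehicle replicate 1 or JQ1 replicate 2 or 3 (edgeR adjusted p 0.00764 to 0.614 over the alternatives of both). POLR1E, a subunit specific to RNA polymerase I, fell in AML2, by 1.17 with JQ1 and by 0.89 with OTX015 on the log2 scale, while the difference between the lines did not pass (edgeR adjusted p = 0.172 and 0.799).

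POLR1A, the largest and catalytic subunit, did not pass in any comparison. In AML3, POLR1A had 16.9, 9.51 and 12.6 CPM with JQ1 and 14.2, 11 and 12.9 CPM with OTX015, against 21.1, 17.3 and 8.51 CPM with vehicle. In AML2, POLR1A had 11.4, 13.2 and 8.82 CPM with JQ1 and 9.34, 5.80 and 12.6 CPM with OTX015, against 11, 8.14 and 10.2 CPM with vehicle. All groups overlapped. The log2 fold changes of POLR1A ran from -0.40 (SE 0.36) with OTX015 in AML3 to 0.27 (SE 0.38) with JQ1 in AML2 (edgeR adjusted p 0.355 to 0.81), and each 95% interval reached a 2-fold change in 1 direction.

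UBTF, the HMG-box protein that binds ribosomal DNA and keeps it open for RNA polymerase I, was the highest of all members by mean change. In AML3, UBTF had 45.3, 48.6 and 55.9 CPM with JQ1 and 52.4, 55.9 and 45.2 CPM with OTX015, against 38.7, 40.7 and 34.0 CPM with vehicle. In AML2, UBTF had 93.6, 93.4 and 68.8 CPM with JQ1 and 84.1, 61.9 and 94.7 CPM with OTX015, against 41.3, 45.6 and 76.7 CPM with vehicle. The AML2 groups overlapped, as vehicle replicate 3 lay within the range of the compound libraries, and the AML3 groups did not. The AML2 changes were 0.71 (SE 0.22, edgeR adjusted p = 0.016) with JQ1 and 0.57 (SE 0.23, adjusted p = 0.0477) with OTX015, and in AML3 the values were 0.37 (SE 0.25, adjusted p = 0.212) and 0.44 (SE 0.25, adjusted p = 0.132). The JQ1 call was lost without AML2 vehicle replicate 1 or 2 or JQ1 replicate 1 or 2, and the OTX015 call without vehicle replicate 1 or 2 or OTX015 replicate 1 or 3 (edgeR adjusted p 1.09e-05 to 0.217 over the alternatives of both).

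The UBTF row was a sum of 16 start-site clusters spread over 11.7 kb (hg19 chr17:42287802-42299485, minus strand), of which none held more than 19.0% of the tags. The cluster at hg19 chr17:42299455-42299485, the farthest upstream, held 14 tags with JQ1 and 8 with OTX015, against 1 with vehicle, in AML3. In AML2 it held 37 tags with JQ1 and 26 with OTX015, against 3 with vehicle. The UBTF ratios, scaled for depth, were 18.7 (95% exact counting interval 2.85 to 793) and 12.2 (1.64 to 542) in AML3, and 18.2 (5.76 to 92.2) and 13.9 (4.26 to 71.7) in AML2. That cluster passed in all 4 comparisons (edgeR over 12867 promoters, adjusted p 5.86e-05 to 0.0145), where 26.5% (JQ1) and 28.4% (OTX015) of all promoters tested rose in AML3 and 17.1% and 20.5% in AML2. Farther downstream, the UBTF clusters at hg19 chr17:42295777-42295816 and chr17:42295897-42295953 held 25 and 27 tags in AML2 vehicle libraries and 0 tags in all AML2 libraries with a compound, where a count of 0 allows up to 3 tags over each group of libraries.

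Proteins of the snoRNA complexes were among the highest members. With vehicle, NCL, FBL and NHP2 were the highest members in both lines and made up 29% of the summed level in AML3 and 31.7% in AML2, where the median member stood at 43.2 and 57.6 CPM. The 8 snoRNA-protein genes summed to 522 ± 132 CPM with JQ1 and 508 ± 127 CPM with OTX015, against 1226 ± 16.7 CPM with vehicle, in AML3 (SD, n = 3 each). In AML2 they summed to 786 ± 50.5 CPM with JQ1 and 732 ± 37.1 CPM with OTX015, against 2020 ± 227 CPM with vehicle (SD, n = 3 each). Of the 8, 7 fell in AML3 and 6 in AML2 with each compound. Beside them, 24.1% (JQ1) and 26.1% (OTX015) of all genes fell in AML3 and 17.4% and 19.9% in AML2.

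FBL, the methyltransferase of the box C/D complexes, fell in all 4 comparisons. In AML3, FBL had 131, 165 and 74.0 CPM with JQ1 and 128, 140 and 71.1 CPM with OTX015, against 413, 420 and 374 CPM with vehicle. In AML2, FBL had 147, 130 and 143 CPM with JQ1 and 174, 202 and 124 CPM with OTX015, against 667, 545 and 625 CPM with vehicle. The highest compound library was below the lowest vehicle library by a wide gap in each line. FBL changed by -1.69 (SE 0.28) and -1.81 (SE 0.28) in AML3 and by -2.13 (SE 0.28) and -1.86 (SE 0.28) in AML2 (edgeR adjusted p 2.79e-06 to 2.63e-05). The AML3 levels were lowest in the libraries that stood apart, and without that library of the group the FBL values were -1.45 with JQ1 and -1.59 with OTX015.

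NOP58 and NOP56 form a heterodimer on the same box C/D snoRNAs, yet their rows differed. In AML3, NOP58 had 50.7, 64.5 and 52.3 CPM with JQ1 and 62.3, 62.4 and 47.4 CPM with OTX015, against 108, 105 and 118 CPM with vehicle. In AML2, NOP58 had 66.2, 59.1 and 51.2 CPM with JQ1 and 58.4, 66.8 and 59.0 CPM with OTX015, against 115, 108 and 107.3 CPM with vehicle. Levels were alike in the lines and did not overlap between compound and vehicle. NOP58 changed by -0.97, -0.91, -0.89 and -0.84 (JQ1 and OTX015 in AML3, then in AML2, SE 0.19 each, edgeR adjusted p 0.000195 to 0.00112).

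NOP56 did not pass in any comparison. In AML3, NOP56 had 85.4, 91.9 and 108 CPM with JQ1 and 81.9, 87.6 and 106 CPM with OTX015, against 72.7, 90.0 and 78.0 CPM with vehicle. In AML2, NOP56 had 47.9, 56.4 and 91.7 CPM with JQ1 and 52.5, 51.3 and 94.7 CPM with OTX015, against 64.0, 44.5 and 88.2 CPM with vehicle. The groups overlapped in both lines, and replicate 3 was the highest in all 3 AML2 groups. The log2 fold changes of NOP56 were 0.24 and 0.18 (SE 0.26 each) in AML3 and -0.00 with both compounds (SE 0.27) in AML2 (edgeR adjusted p 0.461 to 1). Of the NOP56 tags, 95% lay in the cluster at hg19 chr20:2633269-2633287.

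In the box H/ACA complex, which turns uridine into pseudouridine, all 4 core genes fell in AML3. GAR1 had the lowest mean change of all members, -2.32. In AML3, GAR1 had 8.89, 12.7 and 7.22 CPM with JQ1 and 7.65, 14.2 and 4.31 CPM with OTX015, against 52.2, 47.6 and 62.4 CPM with vehicle. In AML2, GAR1 had 12.6, 30.0 and 26.5 CPM with JQ1 and 28.0, 21.3 and 25.3 CPM with OTX015, against 80.9, 98.2 and 155 CPM with vehicle. Compound and vehicle libraries lay far apart in each line. The log2 fold changes of GAR1 were -2.42 (SE 0.35) and -2.48 (SE 0.36) in AML3 and -2.24 (SE 0.29) and -2.14 (SE 0.29) in AML2 (edgeR adjusted p 1.8e-06 to 4.5e-06).

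DKC1, the pseudouridine synthase of the complex and also part of telomerase, fell less far. In AML3, DKC1 had 33.8, 35.9 and 32.5 CPM with JQ1 and 37.1, 41.6 and 17.2 CPM with OTX015, against 83.3, 76.1 and 65.2 CPM with vehicle. In AML2, DKC1 had 49.1, 37.9 and 35.3 CPM with JQ1 and 32.7, 44.5 and 44.2 CPM with OTX015, against 105, 99.3 and 118 CPM with vehicle. The compound libraries were all lower than the vehicle libraries. DKC1 changed by -1.14 (SE 0.23) and -1.16 (SE 0.24) in AML3 and by -1.38 (SE 0.22) and -1.41 (SE 0.22) in AML2.

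NHP2, a small RNA-binding subunit, was the third-highest member with vehicle. In AML3, NHP2 had 102, 93.0 and 32.5 CPM with JQ1 and 102, 73.4 and 53.8 CPM with OTX015, against 201, 189 and 242 CPM with vehicle. In AML2, NHP2 had 184, 138 and 138 CPM with JQ1 and 132, 131 and 103 CPM with OTX015, against 605, 405 and 429 CPM with vehicle. The groups were separate in both lines, and AML2 with vehicle stood apart from all others. Its log2 fold changes were -1.42 (SE 0.30) and -1.43 (SE 0.31) in AML3 and -1.64 (SE 0.29) and -1.97 (SE 0.30) in AML2. NOP10, the smallest subunit, fell by 1.09 and by 1.08 on the log2 scale in AML3 (edgeR adjusted p = 0.00626 and 0.00638) and had values of -0.48 and -0.76 in AML2, which did not pass (adjusted p = 0.238 and 0.0509). NOLC1, which binds both kinds of snoRNA complex as a chaperone, fell in all 4 comparisons, with log2 fold changes from -1.70 to -1.21.

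**Figure D3:**
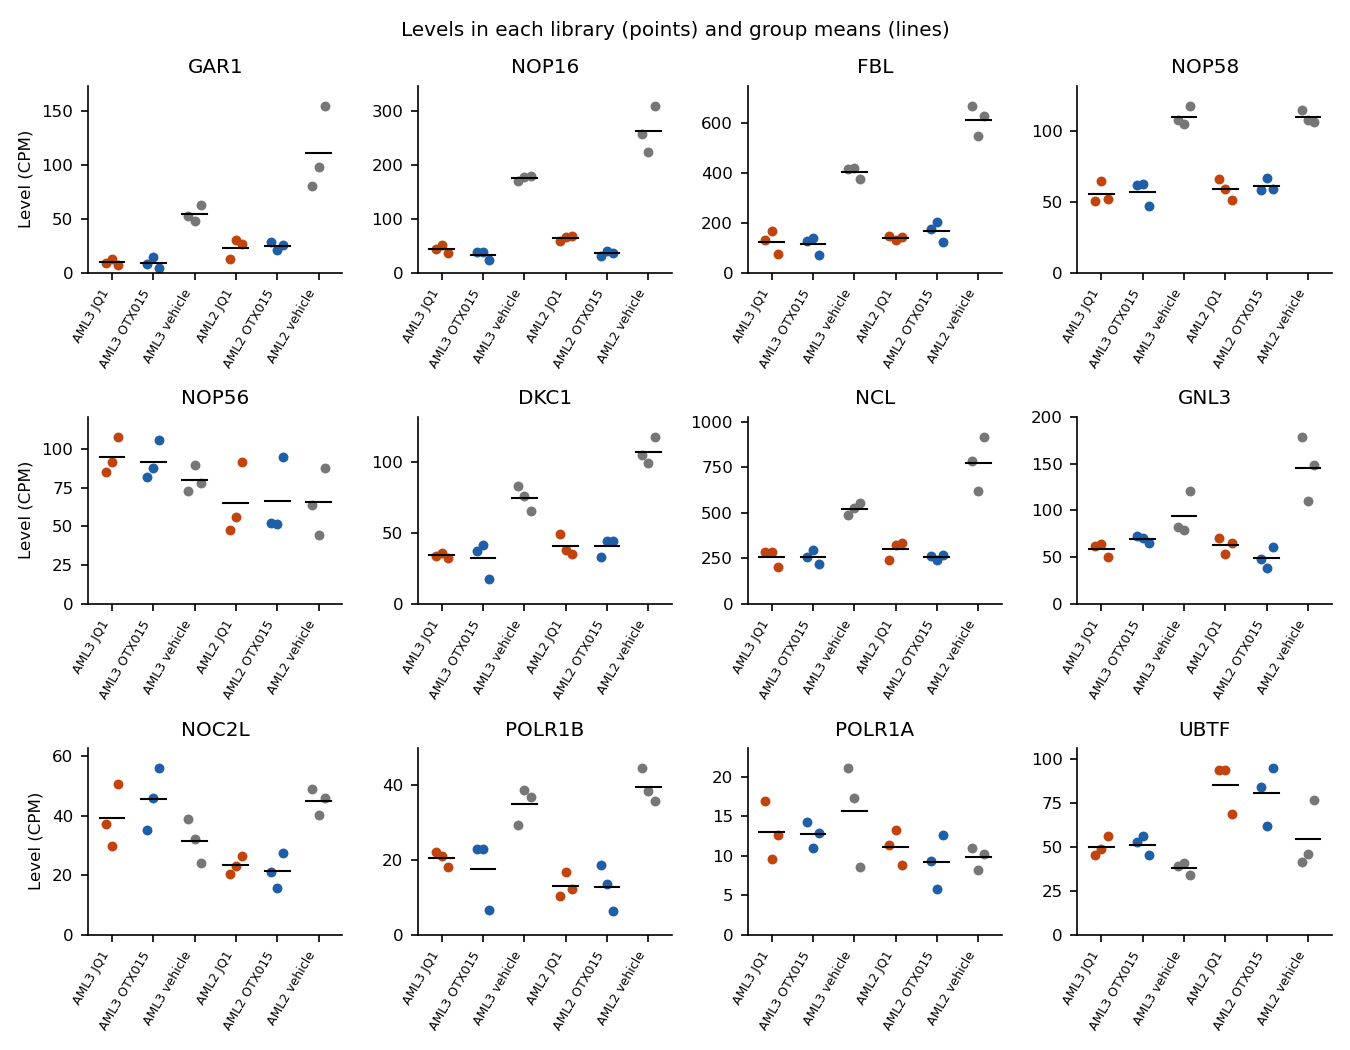
Level in CPM (y axis, from 0) of 12 named genes in each library (points) with the group mean (line), for the 6 groups along the x axis. GAR1, NOP16, FBL, NOP58, DKC1 and NCL are separate from vehicle in both lines, NOP56 and POLR1A overlap throughout, and NOC2L is lower than vehicle in AML2 but overlaps it in AML3.

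The small-subunit genes responded in part. Of their 16 genes, 8 fell with JQ1 and 6 with OTX015 in AML3, where 24.1% and 26.1% of all genes fell. In AML2, 13 fell with each compound, where 17.4% (JQ1) and 19.9% (OTX015) of all genes fell. Median log2 fold changes were -0.71 and -0.70 in AML3 and -1.01 and -1.25 in AML2. The genes that fell in all 4 comparisons were TSR1, a GTPase-like factor of late 40S particles, NOB1, the nuclease that trims the 3′ end of 18S RNA, UTP15 and WDR43 of the UTP-A complex, and IMP4, a U3 snoRNA-binding factor. Their log2 fold changes ran from -2.09 (TSR1, OTX015 in AML3) to -0.79 (NOB1, JQ1 in AML3). UTP15 had 181 tags over all libraries and 0 CPM in OTX015 replicate 3 of AML3. Each of its 4 calls was lost under some alternative other than scaling by total tags. So was the NOB1 call with JQ1 in AML3.

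UTP20, a large scaffold of the small-subunit processome, had the lowest mean change of this role on few tags. In AML3, UTP20 had 3.56, 5.28 and 1.80 CPM with JQ1 and 2.18, 9.86 and 15.1 CPM with OTX015, against 9.38, 9.52 and 14.2 CPM with vehicle. In AML2, UTP20 had 4.57, 4.41 and 3.53 CPM with JQ1 and 1.17, 0.967 and 2.11 CPM with OTX015, against 10.1, 10.8 and 15.3 CPM with vehicle. The 3 AML3 libraries with OTX015 spread across the vehicle range, and the other compound groups were separate from vehicle. UTP20 changed by -3.08 (SE 0.66, edgeR adjusted p = 0.000592) with OTX015 in AML2, by -1.44 (SE 0.50, adjusted p = 0.0275) with JQ1 in AML2 and by -1.45 (SE 0.52, adjusted p = 0.0232) with JQ1 in AML3. The JQ1 calls were lost in AML2 without vehicle replicate 2 or 3 or any JQ1 library, and in AML3 without vehicle replicate 3 or JQ1 replicate 1 or 3 (edgeR adjusted p 0.0155 to 0.107 over the alternatives of both).

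IMP3, which binds U3 snoRNA with IMP4, was the highest of this role by mean change. In AML3, IMP3 had 71.1, 57.1 and 70.3 CPM with JQ1 and 63.3, 49.3 and 62.5 CPM with OTX015, against 78.6, 65.8 and 89.3 CPM with vehicle. In AML2, IMP3 had 84.5, 75.8 and 75.9 CPM with JQ1 and 72.4, 87.1 and 59.0 CPM with OTX015, against 114, 100 and 141 CPM with vehicle. In AML3 the JQ1 group overlapped vehicle and the OTX015 group lay just under it. It fell in AML2, by 0.57 (SE 0.20, edgeR adjusted p = 0.0302) with JQ1 and by 0.66 (SE 0.21, adjusted p = 0.0124) with OTX015, and in AML3 the values were -0.23 and -0.42, which did not pass. The JQ1 call was lost without any of vehicle replicates 1 and 3 or JQ1 replicates 1, 2 and 3, and the OTX015 call without vehicle replicate 3 or OTX015 replicate 3 (edgeR adjusted p 0.00825 to 0.162 over the alternatives of both).

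Other genes of this role moved in part of the comparisons. RRP12, which serves the export of small subunits, and RCL1, the nuclease known from yeast, fell in 3 comparisons each, as did NAT10, the acetyltransferase of 18S RNA. HEATR1 of the UTP-A complex fell in AML2 by 1.05 and by 1.26 on the log2 scale and had values of -0.05 and -0.44 in AML3. RRP9, the U3-specific protein, fell in AML2 by 0.86 and by 1.07. BYSL, a factor of late small subunits, was low, at 0 to 17.6 CPM over all libraries with a compound, and did not pass. PWP2, a UTP-B subunit, did not pass against vehicle either, with log2 fold changes from -0.82 to -0.37.

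Of the 18 large-subunit genes tested, 13 fell with JQ1 and 14 with OTX015 in AML3, where 24.1% and 26.1% of all genes fell. With each compound 17 fell in AML2, where 17.4% (JQ1) and 19.9% (OTX015) of all genes fell. The summed level of the 19 genes of this role was 467 ± 44.0 CPM with JQ1 and 464 ± 21.0 CPM with OTX015, against 997 ± 77.5 CPM with vehicle, in AML3 (SD, n = 3 each). In AML2 it was 498 ± 15.5 CPM with JQ1 and 438 ± 10.9 CPM with OTX015, against 1453 ± 264 CPM with vehicle (SD, n = 3 each). SDAD1 with JQ1 (edgeR adjusted p = 0.0501) and FTSJ3 with OTX015 (adjusted p = 0.0754) were the exceptions in AML2.

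NOP16 had the lowest mean change of this role. In AML3, NOP16 had 43.6, 50.7 and 36.1 CPM with JQ1 and 38.2, 38.3 and 23.7 CPM with OTX015, against 171, 178 and 179 CPM with vehicle. In AML2, NOP16 had 58.2, 67.0 and 68.8 CPM with JQ1 and 30.4, 40.6 and 35.8 CPM with OTX015, against 258, 225 and 310 CPM with vehicle. No compound library came near a vehicle library. NOP16 changed by -2.0 (SE 0.22) with JQ1 and -2.34 (SE 0.23) with OTX015 in AML3, and by -2.03 (SE 0.21) with JQ1 and -2.88 (SE 0.23) with OTX015 in AML2 (edgeR adjusted p 6.97e-10 to 1.16e-07). MRTO4, a stand-in for the ribosomal stalk protein on pre-60S particles, had log2 fold changes of -2.21 and -1.79 in AML3 and -2.05 and -2.0 in AML2.

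EBNA1BP2, known from yeast as a 60S assembly factor, fell to a similar degree. In AML3, EBNA1BP2 had 28.5, 37.0 and 18 CPM with JQ1 and 28.4, 32.9 and 12.9 CPM with OTX015, against 111, 106 and 83.7 CPM with vehicle. In AML2, EBNA1BP2 had 77.6, 54.6 and 49.4 CPM with JQ1 and 44.4, 43.5 and 35.8 CPM with OTX015, against 197, 195 and 250 CPM with vehicle. Compound and vehicle libraries did not overlap. Its log2 fold changes were -1.81 (SE 0.26) and -1.94 (SE 0.27) in AML3 and -1.80 (SE 0.24) and -2.35 (SE 0.25) in AML2.

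PES1, BOP1 and WDR12 form the PeBoW complex, which is needed to process the RNAs of the large subunit, and fell to unequal extents. In AML3, WDR12 had 16.9, 21.1 and 3.61 CPM with JQ1 and 10.9, 9.86 and 21.5 CPM with OTX015, against 55.7, 49.3 and 45.4 CPM with vehicle. In AML2, WDR12 had 41.1, 37.9 and 35.3 CPM with JQ1 and 32.7, 29 and 29.5 CPM with OTX015, against 124, 90.6 and 112 CPM with vehicle. No group with a compound overlapped vehicle. WDR12 changed by -1.72 (SE 0.30) and -1.97 (SE 0.32) in AML3 and by -1.50 (SE 0.25) and -1.83 (SE 0.26) in AML2.

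PES1, the pescadillo protein of the complex, also fell in all 4 comparisons. In AML3, PES1 had 32.0, 22.2 and 16.2 CPM with JQ1 and 27.3, 19.7 and 6.46 CPM with OTX015, against 38.7, 63.2 and 34.0 CPM with vehicle. In AML2, PES1 had 33.1, 29.1 and 28.2 CPM with JQ1 and 24.5, 30.0 and 27.4 CPM with OTX015, against 56.5, 61.3 and 98.4 CPM with vehicle. The groups were separate, narrowly so for JQ1 in AML3. PES1 fell by 0.89 (SE 0.31) and by 1.22 (SE 0.33) in AML3 and by 1.22 (SE 0.29) and by 1.36 (SE 0.30) in AML2, and the JQ1 call in AML3 was lost without vehicle replicate 2 or JQ1 replicate 2 or 3 (edgeR adjusted p 0.00646 to 0.171 over its alternatives).

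BOP1, the scaffold of PeBoW, had the highest mean level of the trio in every group. In AML3, BOP1 had 69.4, 74.0 and 83.0 CPM with JQ1 and 79.7, 99.7 and 81.8 CPM with OTX015, against 115, 125 and 86.5 CPM with vehicle. In AML2, BOP1 had 52.5, 48.5 and 37.0 CPM with JQ1 and 57.2, 53.2 and 61.1 CPM with OTX015, against 115, 112 and 130 CPM with vehicle. The AML2 groups were separate, and in AML3 the OTX015 group overlapped vehicle. BOP1 changed by -1.34 (SE 0.21) and -1.06 (SE 0.21) in AML2, by -0.55 (SE 0.20, edgeR adjusted p = 0.023) with JQ1 in AML3, and had -0.33 (SE 0.20, adjusted p = 0.162) with OTX015 in AML3. The JQ1 call in AML3 was lost without vehicle replicate 1 or 2 or JQ1 replicate 1 or 2 (edgeR adjusted p 0.0011 to 0.651 over its alternatives).

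NOC2L, which pairs with NOC3L on pre-60S particles and is also known as an inhibitor of histone acetyltransferases, was the highest of this role by mean change. In AML3, NOC2L had 37.3, 29.6 and 50.5 CPM with JQ1 and 35.0, 46 and 56.0 CPM with OTX015, against 38.7, 32.0 and 24.1 CPM with vehicle. In AML2, NOC2L had 20.5, 22.9 and 26.5 CPM with JQ1 and 21.0, 15.5 and 27.4 CPM with OTX015, against 48.9, 40.1 and 46 CPM with vehicle. Its groups overlapped in AML3 and were separate in AML2. NOC2L fell by 0.95 (SE 0.26, edgeR adjusted p = 0.00591) and by 1.14 (SE 0.27, adjusted p = 0.00165) in AML2, beside values of 0.22 (SE 0.25, adjusted p = 0.483) and 0.44 (SE 0.25, adjusted p = 0.136) in AML3. NOC3L, its partner, fell in both lines, by 1.06 and by 1.10 on the log2 scale in AML3 and by 1.21 and by 1.52 in AML2.

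The remaining large-subunit genes that fell in all 4 comparisons were NIP7, NLE1, RRS1, the helicase DDX18, the histone-binding GRWD1 and WDR74. Their log2 fold changes ran from -2.35 (NIP7, OTX015 in AML2) to -0.80 (RRS1, JQ1 in AML3). Some calls were lost under an alternative other than scaling by total tags. These were RRS1 with both compounds in AML3, NIP7 and NLE1 with OTX015 in AML3, and GRWD1 and WDR74 with OTX015 in AML2. NOP2, a methyltransferase of 28S RNA, and RRP1 fell in all comparisons but JQ1 in AML3, where the edgeR adjusted p was 0.0603 and 0.0691.

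Of the other nucleolar factors, NCL, LYAR, DDX21 and GNL3, all 4 fell with JQ1 in both lines and with OTX015 in AML2. With OTX015 in AML3, 3 fell. Among all genes, 24.1% (JQ1) and 26.1% (OTX015) fell in AML3 and 17.4% and 19.9% in AML2. NCL encodes nucleolin, an abundant RNA-binding protein of the nucleolus. In AML3, NCL had 283, 281 and 200 CPM with JQ1 and 254, 296 and 215 CPM with OTX015, against 484, 527 and 550 CPM with vehicle. In AML2, NCL had 241, 322 and 333 CPM with JQ1 and 260, 240 and 267 CPM with OTX015, against 785, 618 and 915 CPM with vehicle. No compound library of NCL reached a vehicle library of its line. NCL changed by -1.02 with each compound in AML3 (SE 0.25), and by -1.37 (SE 0.25) and -1.59 (SE 0.26) in AML2.

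LYAR, a nucleolar zinc-finger protein, had the lowest mean change of these 4. In AML3, LYAR had 31.1, 30.6 and 19.8 CPM with JQ1 and 40.4, 32.9 and 23.7 CPM with OTX015, against 78.6, 76.1 and 99.3 CPM with vehicle. In AML2, LYAR had 49.1, 43.2 and 38.8 CPM with JQ1 and 37.4, 33.9 and 29.5 CPM with OTX015, against 107.02, 136 and 169 CPM with vehicle. LYAR changed by -1.57 (SE 0.24) and -1.32 (SE 0.24) in AML3 and by -1.63 (SE 0.22) and -2.0 (SE 0.23) in AML2, separate from vehicle throughout. DDX21, a helicase that acts on ribosomal RNA and at RNA polymerase II genes, changed by -1.03 and -1.26 in AML3 and by -1.45 and -1.66 in AML2.

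GNL3, the GTPase nucleostemin, was the highest of these 4 by mean change. In AML3, GNL3 had 61.4, 64.5 and 50.5 CPM with JQ1 and 72.1, 70.1 and 64.6 CPM with OTX015, against 82.1, 78.7 and 121 CPM with vehicle. In AML2, GNL3 had 70.8, 52.9 and 65.3 CPM with JQ1 and 47.9, 37.7 and 61.1 CPM with OTX015, against 179, 110 and 149 CPM with vehicle. The compound groups were separate from vehicle in both lines. GNL3 fell by 1.22 (SE 0.23) and by 1.61 (SE 0.24) in AML2 and by 0.63 (SE 0.23, edgeR adjusted p = 0.0258) with JQ1 in AML3, and had -0.41 (SE 0.23, adjusted p = 0.135) with OTX015 in AML3. The JQ1 call in AML3 was lost without vehicle replicate 3 or JQ1 replicate 3 (edgeR adjusted p 0.0173 to 0.427 over its alternatives).

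The second question of the design is whether the compounds differ. OTX015 and JQ1 were compared within each line, 52 genes in each, and the labels give no dose or time to match. No gene passed, neither among the 52 nor among all 10031 genes tested (0% lower and 0% higher in each line, edgeR adjusted p under 0.05). At an unadjusted p under 0.05, 253 of all genes differed in AML3 and 331 in AML2, and DESeq2 called 0 genes in AML3 and 1 in AML2. Among the assembly genes 1 in each line had an unadjusted p under 0.05, both lower with OTX015 and both with an edgeR adjusted p of 1. TSR1 differed in AML3 by -0.97 (SE 0.31, 95% interval -1.61 to -0.33), with 14.2, 16.4 and 6.46 CPM with OTX015 and 29.3, 28.5 and 18 CPM with JQ1. NOP16 differed in AML2 by -0.85 (SE 0.24, 95% interval -1.35 to -0.35). Over all genes, replicates 1 and 2 alone gave 1 call lower with OTX015 in AML3, and 1 lower and 3 higher in AML2 (edgeR adjusted p under 0.05). In that fit 756 genes in AML3 and 720 in AML2 had an unadjusted p under 0.05.

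The intervals show what size of difference these libraries could hold. The median 95% interval of the 52 differences, OTX015 minus JQ1, ran from -0.66 to 0.59 in AML3 and from -0.82 to 0.46 in AML2 on the log2 scale. It stayed within a log2 change of 1 in either direction for 34 genes in AML3 and 38 in AML2. For the other genes, a difference by 2-fold between the ester and the amide compound lay inside the interval. The median difference was -0.02 in AML3 and -0.21 in AML2, beside medians of all genes close to 0.

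The third question is whether the lines respond differently. The JQ1 effect in AML3 minus its effect in AML2 passed for 1 of 52 genes, upward, where 3.02% of all genes passed upward and 3.92% downward. For OTX015, 2 of 52 passed upward, where 2.84% of all genes passed upward and 4.81% downward. NOC2L was the gene that passed with both compounds, with differences of 1.17 (SE 0.36, edgeR adjusted p = 0.0482) for JQ1 and 1.58 (SE 0.37, adjusted p = 0.00736) for OTX015. GNL3 passed with OTX015, with a difference of 1.20 (SE 0.33, edgeR adjusted p = 0.0243). The difference of UTP20 with OTX015 was 2.69 (SE 0.86) and did not pass (edgeR adjusted p = 0.0528).

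The NOC2L difference with JQ1 did not pass in 10 of 12 fits that left out 1 library, every one but those without AML3 vehicle replicate 1 or AML3 JQ1 replicate 2 (edgeR adjusted p 0.0322 to 0.124 over all alternatives). The GNL3 difference with OTX015 did not pass without AML3 vehicle replicate 1 or 2, AML3 OTX015 replicate 1 or 2, AML2 vehicle replicate 1, or AML2 OTX015 replicate 1 or 2 (edgeR adjusted p 0.00053 to 0.101). At an unadjusted p under 0.05, 6 genes differed between the lines with JQ1 and 9 with OTX015, and all of these had the lower value in AML2. These are 11.5% and 17.3% of the 52, where 20.7% and 22.0% of all genes had such a p, 10.5% and 10.3% of all genes with the lower value in AML2.

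**Figure D4:**
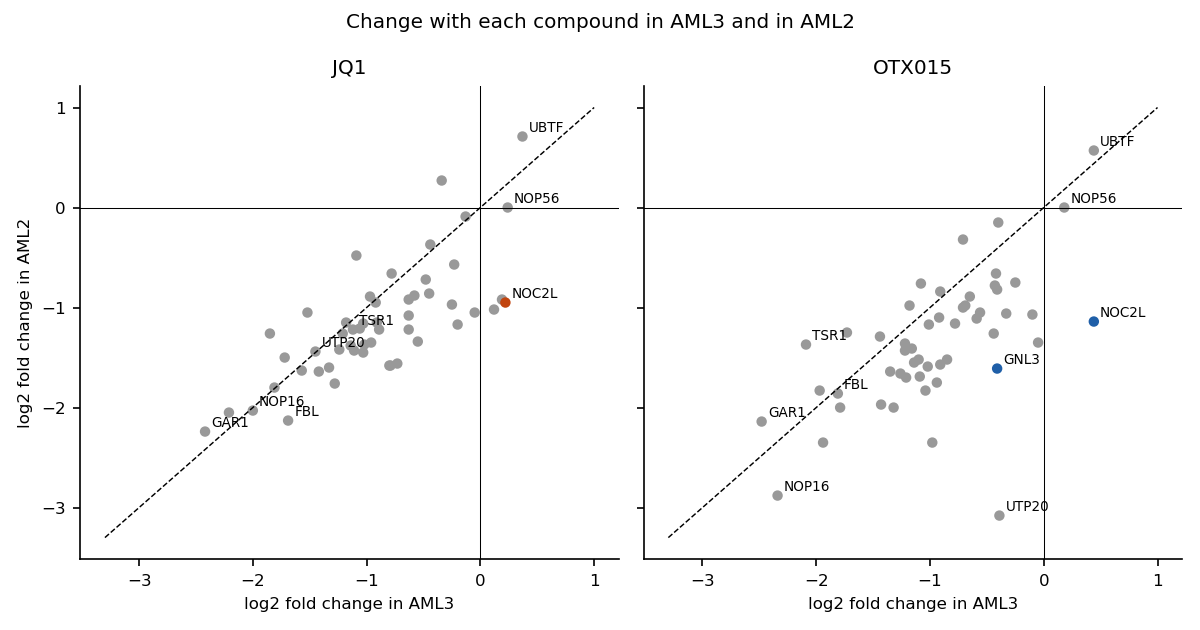
Log2 fold change against vehicle in AML3 (x axis) and in AML2 (y axis) of the 52 tested genes, for JQ1 on the left and OTX015 on the right, with the line of equal change dashed and the genes past the test of the difference in colour. More points lie under the dashed line than over it, and NOC2L lies farthest to the right of the genes that fell in AML2.

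Across the 52 genes, changes in the lines went together for JQ1 (Pearson r = 0.746, Spearman rho = 0.757) and for OTX015 (r = 0.617, rho = 0.636). These are descriptions over genes, which share libraries and are not independent replicates. With JQ1 the value was lower in AML2 for 37 genes (71.2%), beside 51.6% of all genes, and with OTX015 for 41 (78.8%), beside 50.9%. MYC, whose part in this was not tested, also had a lower value in AML2, with log2 fold changes of -1.47 (JQ1) and -1.31 (OTX015) in AML3 and -2.74 and -3.15 in AML2 (difference 1.27, edgeR adjusted p = 0.0166, and 1.84, adjusted p = 0.000737). HEXIM1, a gene known to respond to BET inhibitors, rose in all 4 comparisons, by 3.16 to 4.69 on the log2 scale.

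With vehicle alone, AML3 had lower levels than AML2 for 13 of the 52 genes and a higher level for 1, where 11.7% of all genes were lower and 11.4% higher. The median log2 difference, AML3 minus AML2, was -0.44, beside -0.04 over all genes. EBNA1BP2 differed by -1.08 (SE 0.22, edgeR adjusted p = 0.000647), WDR12 by -1.09 (SE 0.23, adjusted p = 0.000773) and POLR1C by -0.91 (SE 0.21, adjusted p = 0.0018). NHP2 differed by -1.19 (SE 0.29, edgeR adjusted p = 0.00282) and GAR1 by -1.03 (SE 0.25, adjusted p = 0.00291). DDX21, NOLC1, LYAR, MRTO4, GNL3, NOP16, IMP3 and HEATR1 were lower as well, from -0.98 (NOLC1) to -0.58 (NOP16). The 13 lower genes were 7 without AML2 vehicle replicate 3 and 8 without AML3 vehicle replicate 1, and the higher count was 2 without AML3 vehicle replicate 3. The calls of GNL3 and IMP3 were lost without AML3 vehicle replicate 1 or 2 or AML2 vehicle replicate 1 or 3, that of LYAR without AML3 replicate 1 or 2 or AML2 replicate 3, and that of NOP16 without any of these libraries but AML2 replicate 2 (edgeR adjusted p 0.00123 to 0.165 over the alternatives of these 4).

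PWP2 was the exception. It had 35.8, 31.1 and 26.9 CPM in AML3 vehicle libraries, against 12.6, 11.9 and 17.9 CPM in AML2 vehicle libraries, with no overlap. The difference was 1.22 (SE 0.32, edgeR adjusted p = 0.00585). With JQ1, PWP2 had 24.9, 24.3 and 19.8 CPM in AML3 and 12.6, 8.81 and 10.6 CPM in AML2, and with OTX015 it had 22.9, 36.1 and 6.46 CPM in AML3 and 5.84, 7.74 and 10.5 CPM in AML2.

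CAGE also shows where within a promoter the tags start. The clusters behind a gene row could be resolved for 50 of the 53 genes, and 18 of these had a single cluster. For the 10 genes with 2 or more tested clusters, the share of tags at the smaller of the largest pair was compared between the 6 libraries with a compound and the 3 with vehicle of a line, in 20 exact permutation tests that were chosen after the data were seen. The smallest two-sided p this design allows is 0.0238, which 8 tests reached, and with Benjamini-Hochberg adjustment over the 20 none passed (adjusted p = 0.0595 for each of the 8). The shares below are therefore descriptions.

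In DKC1, the smaller cluster (hg19 chrX:153991175-153991226) lay 7 bases downstream of the larger one (chrX:153991088-153991168). Its share was 12.8% ± 3.82 with a compound (SD, n = 6) and 34.0% ± 8.64 with vehicle (SD, n = 3) in AML3, and 11.6% ± 5.10 and 39.6% ± 1.86 in AML2, with no overlap in either line. Both clusters fell in all 4 comparisons, but the smaller to log2 fold changes from -3.39 to -2.42 and the larger from -1.0 to -0.74 (edgeR over promoters), where 23.8% (JQ1) and 25.8% (OTX015) of all promoters fell in AML3 and 18.1% and 20% in AML2. GAR1 showed the same direction in AML2, where the cluster at hg19 chr4:110736896-110736941, 202 bases downstream of the larger one, held 8.12% ± 5.80 with a compound and 32.3% ± 5.12 with vehicle, while in AML3, with 2 to 13 tags per compound library, it held 24.3% ± 16.8 and 33.8% ± 7.54 (exact permutation p = 0.405).

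RRP9 went the other way. Its smaller cluster (hg19 chr3:51975942-51975962, minus strand) lay 6 bases upstream of the larger (chr3:51975889-51975936) and held 55.7% ± 15.8 of the tags with a compound and 19.7% ± 3.86 with vehicle in AML3, and 50% ± 10 and 22.6% ± 1.39 in AML2 (SD, n = 6 and 3). The larger RRP9 cluster fell in all 4 comparisons, with log2 fold changes of -1.48 and -0.92 in AML3 and -1.67 and -1.59 in AML2. The smaller RRP9 cluster rose in AML3, by 1.10 with JQ1 (edgeR adjusted p = 0.0235) and by 1.32 with OTX015 (adjusted p = 0.0066), and in AML2 its values were 0.40 (adjusted p = 0.434) and -0.09 (adjusted p = 0.89). The RRP9 row as a whole thus summed starts that moved in opposite directions in AML3, where it did not pass. POLR1E had a share of 35.8% ± 14.1 at its downstream cluster with a compound and 9.31% ± 9.28 with vehicle in AML3, and 18% ± 13.2 and 12.4% ± 8.04 in AML2, where the groups overlapped (exact permutation p = 0.595).

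**Figure D5:**
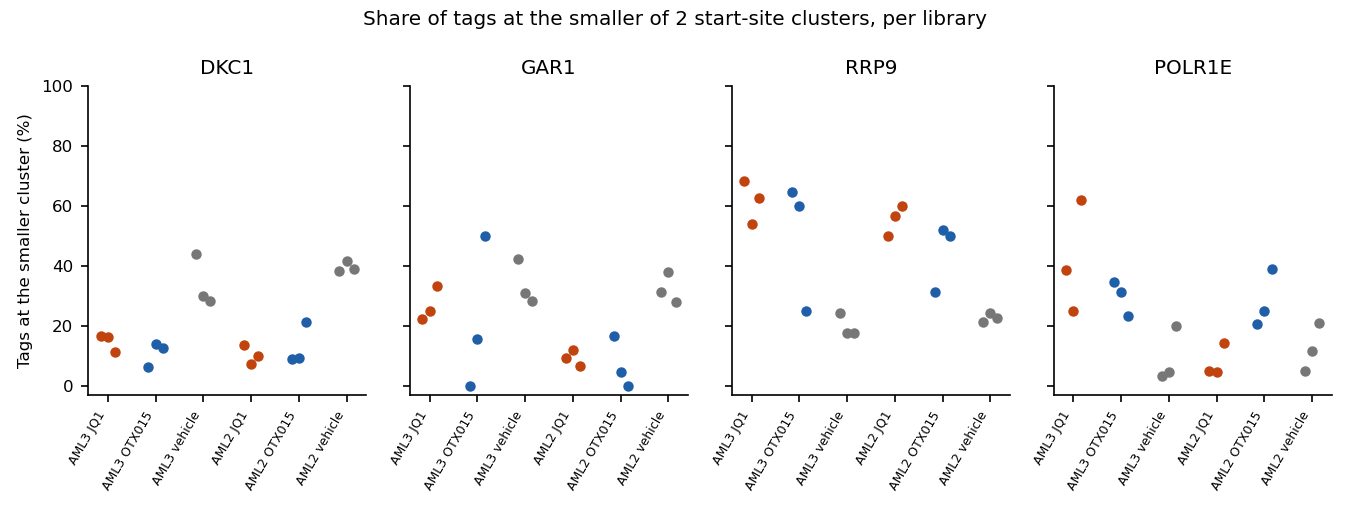
Share of tags (y axis, in percent) at the smaller of the 2 largest start-site clusters of DKC1, GAR1, RRP9 and POLR1E in each library, by group along the x axis. In DKC1 the compound libraries lie under the vehicle libraries in both lines and in RRP9 above them, while GAR1 and POLR1E are separate in 1 line each.

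The promoters shown above were read for short motifs on both strands, over the 45 members with a RefSeq entry and 10027 genes in all. The E-box CACGTG occurred in 17 of the 45 promoters (37.8%), beside 10.3% of all promoters. The GC box GGGCGG occurred in 75.6% beside 71.0%, the ETS motif CCGGAAG in 33.3% beside 20.4%, the NRF1 motif in 6.67% beside 2.41%, and the TATA motif TATAAA in 2.22% beside 5.31%. Within a shorter window, from 150 bases before the start, the E-box stood in 33.3% beside 7.96%. In FBL it began 6 bases after the start, in RRP9 5 bases before it, and in NOP10 170 and 11 bases before it.

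The 17 genes with it had median log2 fold changes of -0.92 and -1.01 in AML3 and -1.15 and -1.36 in AML2, and the 27 tested genes without it -0.79 and -0.92 in AML3 and -1.22 and -1.35 in AML2. GAR1 and NOP16 fell with no CACGTG in the window, and FBL, MRTO4 and EBNA1BP2 fell with it. Of the genes that fell in no comparison, BYSL and PWP2 held it, and UBTF, NOP56 and POLR1A did not. A part of the E-box in the falls was not tested. A match of letters is a description of the sequence and no measure of binding.

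Several of these genes carry snoRNAs in their own span. On the strand of the gene, 8 of the 53 (15.1%) did in GENCODE 29, beside 2.05% of 13585 genes: NOP56, NOP58, NCL, DKC1, GNL3, WDR43, PPAN and TSR1. NOP56, for example, holds SNORD110, SNORA51, SNORD86, SNORD56 and SNORD57. Over the 7 of them that were tested, the log2 fold changes with OTX015 in AML3 ran from -2.09 (TSR1) to 0.18 (NOP56).

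Beyond the named genes, 109 other ribosome assembly genes could be tested. In AML3, 52 fell and 2 rose with JQ1, where 24.1% of all genes fell and 26.8% rose. With OTX015, 50 fell and 5 rose in AML3, where 26.1% of all genes fell and 28.8% rose. In AML2, 53 fell and 0 rose with JQ1, where 17.4% of all genes fell and 17.2% rose. With OTX015, 55 fell and 1 rose in AML2, where 19.9% of all genes fell and 20.5% rose. Their median log2 fold changes were -0.60 with each compound in AML3 and -0.73 and -0.76 in AML2, and the difference from the 52 genes was not tested. By mean change the largest falls were those of PAK1IP1 (-1.89), BRIX1 (-1.79) and EXOSC5 (-1.56), a 60S assembly regulator, a 60S assembly factor and an exosome subunit.

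TAF1C, a subunit of the SL1 factor that places RNA polymerase I at its promoter, rose in AML3. It had 26.7, 30.6 and 61.3 CPM with JQ1 and 26.2, 35.0 and 28.0 CPM with OTX015, against 9.38, 13.0 and 2.84 CPM with vehicle. The log2 fold changes of TAF1C were 2.02 (SE 0.38, edgeR adjusted p = 0.000126) and 1.71 (SE 0.40, adjusted p = 0.000868) in AML3, and 0.26 with each compound in AML2, which did not pass. The difference of TAF1C between the lines with JQ1 did not pass either (edgeR adjusted p = 0.0652). TAF1B, of the same factor, rose by 0.78 (SE 0.23, edgeR adjusted p = 0.00936) with OTX015 in AML2. SHQ1, the assembly chaperone of DKC1, rose in AML3 by 0.80 (SE 0.29, edgeR adjusted p = 0.0233) and 0.98 (SE 0.29, adjusted p = 0.00581), while DKC1 itself fell there. DDX51, EFL1 and ZNHIT6 rose with OTX015 in AML3, by 0.96, 1.24 and 0.94 on the log2 scale. The difference between the lines did not pass for SHQ1 with JQ1 (edgeR adjusted p = 0.0746) or for DDX51 with OTX015 (adjusted p = 0.0655). RBM28 did pass with JQ1, by 1.29 (SE 0.33, edgeR adjusted p = 0.0157), with 0.06 in AML3 and -1.23 in AML2. Among all genes 3.02% passed upward in that test. Differences between the lines for the rest of these genes are not listed here.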

How the data were processed

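The 18 CAGE libraries, 3 in each of 6 groups, were described by counts, the whole numbers of tags per gene symbol and per promoter that the authors deposited without normalization. STAR and hg38 were used, per the submitters' processing notes. The counting tool is not stated in the sources used here, and tags of near-identical gene copies may be split. Promoter names carry hg19 coordinates, which were kept and never converted, and RefSeq promoters are in GRCh38.p14.

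The tests used edgeR 4.0.16 (R 4.3.3) with TMM scaling, the filterByExpr filter (10031 of 14079 genes and 12867 of 42133 promoters left), quasi-likelihood models with 1 mean per group over all 18 libraries (12 residual degrees of freedom), and Benjamini-Hochberg adjustment over all genes tested. The fits were checked on counts simulated with the fitted spread, few changed genes in both directions and no shift of replicate 3. That check therefore does not bear on the shift of replicate 3 or on the choice of scaling. Standard errors were derived from the log2 fold change and its F value. DESeq2 1.42.0 served as an alternative, beside size factors, total tags, no filter, a replicate block, replicates 1 and 2 alone, only the groups compared, and each library left out. Shares were tested in Python 3.11.15 with SciPy 1.17.1, and figures drawn with matplotlib 3.10.9. Intervals of single counts cover counting error only.

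The members, lists and tests were chosen with earlier results of these data known. Values per library are given for the lowest and highest member of each role by mean change, for genes fixed by name, for up to 5 members per direction that passed between lines or compounds, and for any that rose. The start-site shares, the cluster counts of UBTF and the definition of a snoRNA host were added after the data were seen. A promoter cluster was matched to a member where counts agreed in every library, also as sums of neighbouring clusters, which failed for NCL, PPAN and PWP2. Libraries with the same replicate number deviated together between OTX015 and JQ1 (correlation 0.326 to 0.589 in AML3 and 0.113 to 0.316 in AML2 over genes). Yet OTX015 replicate 2 in AML3 and replicates 1 and 2 in AML2 correlated better with a JQ1 library of another number. Neither the labels nor these values thus establish pairs. A fit with the replicate number as a block gave 0 calls between the compounds, as did the fit without it.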

Additional observations from a re-analysis of the deposited data

Results flagged for a closer look

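NOC2L and GNL3 passed the edgeR test of the difference between the lines. Among all genes 3.02% (JQ1) and 2.84% (OTX015) passed upward, close to the share among the 52 genes. The NOC2L call with JQ1 was lost in 10 of 12 fits that left out 1 library, and the GNL3 call with OTX015 in 7 of 12. For NOC2L the JQ1 effect in AML3 minus that in AML2 was 1.17, with values of 0.22 in AML3 and -0.95 in AML2, and the OTX015 effect differed by 1.58, with 0.44 in AML3 and -1.14 in AML2. For GNL3 the OTX015 effect differed by 1.2, with -0.41 in AML3 and -1.61 in AML2.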

How the results depend on the processing

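Among the 52 genes, counts of falls were 29 to 33 (JQ1) and 29 to 35 (OTX015) in AML3 and 37 to 42 and 39 to 42 in AML2 when 1 library was left out, and 21, 18, 33 and 35 genes, in that order, kept their call under every alternative. Total tags as the scale raised the median of all genes to 0.44, 0.51, 0.16 and 0.20 and left 21 and 19 falls and 1 and 2 rises in AML3, 8 lower genes between the lines with vehicle and 0 JQ1 differences between lines. Relative to that shift the members' medians were -0.99, -1.0, -1.20 and -1.37, beside -0.98, -0.99, -1.21 and -1.37 with TMM. Signs flipped there only for members with no call of their own, BOP1 with OTX015, GNL3 with OTX015 and UTP20 with OTX015 in AML3 among them. For the other assembly genes that scale gave 23 and 17 falls and 9 and 11 rises in AML3. It gave them 35 falls with JQ1 in AML2, 2 and 5 line differences upward, and 9 lower genes between lines. Among all 10031 genes it gave 1370 and 1512 falls and 3635 and 4029 rises in AML3, and 1262 falls with JQ1 in AML2.

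UBTF's rise with OTX015 in AML2 became 0 calls with size factors, DESeq2, no filter and only the groups compared, and 0 to 1 calls with 1 library left out, as with JQ1. The JQ1 line difference gave 0 calls with DESeq2, no filter, and replicates 1 and 2 alone (1 downward there), and 0 to 1 with 1 library left out, and OTX015 gave 1 to 2. Between lines with vehicle, 7 to 14 genes were lower and 1 to 2 higher with 1 library left out, and 4 higher with replicates 1 and 2 alone. For the other assembly genes, 2 OTX015 line differences passed downward with replicates 1 and 2 alone and 2 genes were higher between lines with DESeq2.

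Same-numbered libraries of compound and vehicle did not all correlate above 0.1, so pairs were not established. In AML3 each compound library did correlate best with the vehicle library of its own number, at 0.0358 to 0.101. With the replicate block, 36 and 36 genes fell in AML3 and 46 and 45 in AML2, 3 OTX015 line differences and, for the other assembly genes, 3 JQ1 line differences passed upward. The causes were not tested. Depth limits UTP15, UTP20, BYSL, PPAN and the start-site shares.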
